A study of Homo sapiens with 4 samples.

Results

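The RNA of 30 target genes of the tumor suppressor p53 was followed in HGC-27 cells with and without a knockout of RUNX3. The genes were chosen by symbol, with CDKN1A at their head, and all 30 had a row among the 25559 gene symbols of the count tables. HGC-27 cells come from a lymph node metastasis of a poorly differentiated gastric cancer. There were 2 libraries of control cells (genotype wildtype, labelled wt) and 2 of RUNX3 KO cells, whose RUNX3 gene had been targeted by Cas9 and a guide from a lentiviral vector, with puromycin selection and single-cell cloning. The sources used here do not state the number of clones or whether the replicates were separate cultures, so the knockout and any difference between clones cannot be told apart, and p-values measure only the spread between these libraries. Each library had between 11731401 and 12110876 reads on genes, at which depth genes with few counts are measured imprecisely.

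p53 is a transcription factor that is stabilised by DNA damage, oncogene activity and other stress. It binds a response element made of a repeated motif and raises the RNA of genes that halt the cell cycle, repair DNA, kill the cell or adjust its metabolism. CDKN1A encodes p21, the inhibitor of cyclin-dependent kinases through which p53 halts the cell cycle, and MDM2 encodes the ubiquitin ligase that in turn degrades p53. Many of these genes are also transcribed without p53, and CDKN1A is known as a gene that RUNX3 can induce in gastric epithelial cells.

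The response elements near the 30 genes are shown because p53 binds this sequence. The 5000 bases on each side of the transcription start were searched in GRCh37, the build that the study calls hg19, for the p53 response element consensus. It has 20 letters and reads the same on both strands, and a match was allowed up to 2 mismatches outside the C and G of each core. Of the 30 genes, 16 (53.3%) held a match, against 924 of 12115 tested genes with a position (7.63%). The 30 genes were chosen as p53 targets, so this difference is no test of the set. The matches of 10 genes whose RNA fell, rose or stayed uncalled are given below along the strand of the gene, with letters that meet the consensus in capitals and mismatches in lower case.
CDKN1A, chr6:36644226-36644245, plus strand: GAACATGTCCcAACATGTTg
FAS, chr10:90751066-90751085, plus strand: GGACAAGCCCtGACAAGCCa
SPATA18, chr4:52918123-52918142, plus strand: GGACATGTgTGtACATGCCC
MDM2, chr12:69202703-69202722, plus strand: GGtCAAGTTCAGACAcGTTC
ZMAT3, chr3:178787976-178787995, minus strand: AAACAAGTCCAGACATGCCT
DDB2, chr11:47236520-47236539, plus strand: AAGCTgGTTTGAACAAGCCC
AEN, chr15:89164537-89164556, plus strand: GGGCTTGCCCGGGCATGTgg
PLK2, chr5:57758101-57758120, minus strand: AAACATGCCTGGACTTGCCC
GADD45A, chr1:68152458-68152477, plus strand: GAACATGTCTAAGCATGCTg
BTG2, chr1:203272770-203272789, plus strand: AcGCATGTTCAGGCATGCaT

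The matches of PLK2 and ZMAT3 had no mismatch. PLK2 encodes a polo-like kinase and ZMAT3 a zinc-finger protein that binds RNA. Relative to the start of the annotated transcript, the match of CDKN1A lay upstream at position -2255, that of PLK2 at -2198 and that of BTG2 at -1867. Those of FAS, SPATA18, MDM2, ZMAT3 and GADD45A lay in introns, 662, 663, 756, 1611 and 1584 bases past the start. In DDB2 the match lay at the start itself, in the non-coding part of an exon. Among the 10 genes of the set that fell in RUNX3 KO cells 6 held a match, among the 6 that rose 3 did, and among the 9 tested genes that were not called 4 did, so matches occurred in each of these groups.

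In AEN the match lay at -24, and in MDM2 it lay in the promoter inside the gene. The 250 bases before the RefSeq start of both genes are given here because they hold a whole p53 element (capitals) beside an annotated start of a gene called higher (AEN) and of a gene called lower (MDM2). Counts were per gene, so the RNA from each start was not measured. The sequences come from RefSeq (GRCh38.p14) and matched GRCh37 exactly at the positions given.
AEN, chr15:89164321-89164570, plus strand: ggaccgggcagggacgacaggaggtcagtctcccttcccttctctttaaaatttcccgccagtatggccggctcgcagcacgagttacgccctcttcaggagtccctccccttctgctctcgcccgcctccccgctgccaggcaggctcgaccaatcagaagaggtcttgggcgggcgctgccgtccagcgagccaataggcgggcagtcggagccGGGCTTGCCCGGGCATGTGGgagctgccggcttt
MDM2, chr12:69202554-69202803, plus strand: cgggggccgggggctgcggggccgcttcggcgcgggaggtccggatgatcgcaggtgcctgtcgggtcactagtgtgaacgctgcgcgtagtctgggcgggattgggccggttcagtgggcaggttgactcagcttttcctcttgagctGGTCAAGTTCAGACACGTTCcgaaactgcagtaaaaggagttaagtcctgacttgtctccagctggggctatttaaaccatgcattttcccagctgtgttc

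Promoters were also searched for the letters bound by RUNX proteins, TGTGGT or TGCGGT on either strand. RefSeq promoter sequences of 300 bases, from 250 before to 50 past the start, were matched for 25 of the 30 genes. Of these, 5 (20%) held at least 1 of these words, against 6879 of 35116 promoters (19.6%). PPM1D, ZMAT3, TRIAP1, SESN1 and GDF15 held them. Of these 5, ZMAT3 was called lower and SESN1 higher, PPM1D and TRIAP1 were not called, and GDF15 was not tested. RefSeq starts can differ from the transcript starts used for the p53 matches. The ZMAT3 window, chr3:178787081-178787380, lay inside the gene, past its p53 match. That of FAS, from chr10:90750421, began past the start used there. The CDKN1A promoter window held none, which says only that these letters are not in this window.

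RUNX3, the targeted gene, had 29.7 and 26.1 CPM in the control libraries and 19.1 and 15.4 CPM in the RUNX3 KO libraries, where CPM are counts per 1000000 reads on genes after TMM scaling in edgeR. By immunoblot, the study reported RUNX3 protein absent from its HGC-27 RUNX3 KO cells. RUNX3 RNA was lower in these libraries but still counted (log2 fold change -0.70, SE 0.0961, adjusted p = 1.43e-09, edgeR quasi-likelihood). Without RUNX3 KO replicate 2 the value was -0.55 and its adjusted p in the edgeR test 0.0649. Of the markers of differentiated gastric epithelium, MUC5AC, TFF1, TFF2, GKN1 and CLDN18 had 0 counts in each library and MUC6 had 1 count in 1 of them. Epithelial markers were low, with summed levels of 2.80 and 2.96 CPM in control and 8.81 and 10.6 CPM in RUNX3 KO cells, and 1 of the 5 was at 0 in every library. Mesenchymal markers summed to between 3549 and 6186 CPM, with the higher sums in control cells, and their part and that of the epithelial markers in the results below was not tested. Leukocyte and endothelial markers summed to at most 0.593 CPM in any library.

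Of the 30 p53 target genes, 25 passed the filter on low counts and were tested, and 16 of the 25 (64.0%) were called at an adjusted p under 0.05 in the quasi-likelihood test of edgeR, adjusted over all genes by the Benjamini-Hochberg method. Among all 12967 tested genes 48.9% were called. In such bulk RNA, fewer cells that express a gene and less of its RNA per cell cannot be told apart. The 16 genes divided into 10 that were lower in RUNX3 KO cells (40%, background 24.4%) and 6 that were higher (24.0%, background 24.5%). The genes of the set had a median of 343 counts per library against 366 for all tested genes. The study required 2-fold changes with a raw p of 0.05 or less, after another normalisation. Over all genes it reported more in each direction than were found here. Under these limits 3 genes of the set passed here (12% of 25, background 6.12%). These were SPATA18, CCNG2 and FAS, which were lower (background 4.01%), and 0 genes were higher (background 2.11%). Control and RUNX3 KO libraries did not overlap in 21 of the 25 genes, 13 lower and 8 higher, but this held for 72.7% of all tested genes (36.4% lower and 36.3% higher). The median log2 fold change of the 25 genes was -0.10, and of all tested genes -0.0021.

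**Figure D1:**
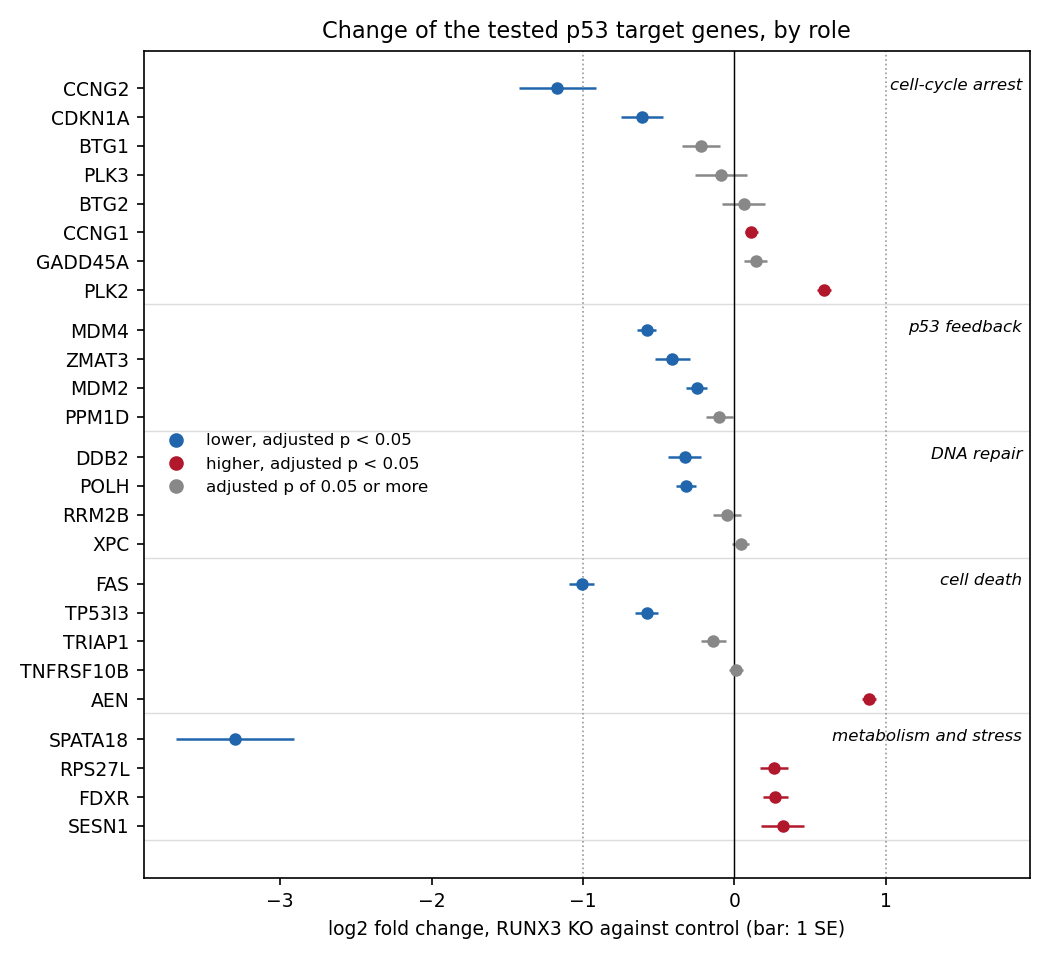
Log2 fold change of each of the 25 tested p53 target genes in RUNX3 KO against control cells, in blocks by role; points are estimates of edgeR's quasi-likelihood fit on 2 libraries per group, bars are 1 SE, colours show the call and dotted lines mark a 2-fold change. Most genes lie within 2-fold, SPATA18 lies far to the left at -3.30 and AEN is the highest at 0.89.

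Target genes were found among both the called falls and the called rises. Of the 16 called genes, 10 changed by less than 1.5-fold. The other 6 comprised 4 lower genes, SPATA18, CCNG2, FAS and CDKN1A, and 2 higher genes, AEN and PLK2. Of the called genes, 7 (CDKN1A, PLK2, MDM4, FAS, AEN, TP53I3 and SPATA18) passed in each of the other fits in which they could be tested, and the other 9 lost the call in at least 1 of them.

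Among the genes of cell-cycle arrest, CDKN1A fell. Control libraries held 138 and 132 counts of CDKN1A and RUNX3 KO libraries 88 and 90, or 11.7 and 11.2 against 7.46 and 7.49 CPM. Both RUNX3 KO libraries lay below both control libraries, and libraries of the same group differed little. The mean was 11.4 ± 0.356 CPM in control and 7.47 ± 0.0215 CPM in RUNX3 KO cells (SD, n = 2 per group). This is 1.53-fold lower, with a log2 fold change of -0.61, an SE of 0.140, a 95% confidence interval of -0.89 to -0.34 and an adjusted p of 0.000127 (edgeR quasi-likelihood). CDKN1A lies on chromosome 6 from 36644237 to 36655114 (GRCh37, plus strand) and its MANE Select transcript has 3 exons. The transcript start used for the p53 match lies further inside. The match at -2255 from that start therefore overlaps the outer end of the annotated gene. Of the 40 tested genes nearest to CDKN1A 15 were lower, and their median log2 fold change was 0.08. Per kb of transcript, the CDKN1A level in control cells was 5.40 CPM, rank 16 among the 30 genes.

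CCNG1 and CCNG2 encode the G-type cyclins, which bind the phosphatase PP2A and do not drive the cell cycle in the manner of other cyclins. CCNG2 had 45 and 58 counts in control and 15 and 31 in RUNX3 KO libraries. The groups did not overlap, although both RUNX3 KO libraries differed from each other by more than the control libraries did. CCNG2 was 2.25-fold lower, with a log2 fold change of -1.17 (standard error 0.255, adjusted p = 6.00e-05, edgeR quasi-likelihood). This rested in part on RUNX3 KO replicate 1, without which it was -0.75 with an adjusted p of 0.128, and without RUNX3 KO replicate 2 it was -1.77. CCNG1 was the most abundant gene of the set per length, at 48.5 CPM per kb in control cells. It had 121 and 116 CPM in control and 123 and 132 CPM in RUNX3 KO libraries, so the groups were close to touching. The log2 fold change of CCNG1 was 0.11 (SE 0.0423, adjusted p = 0.0287, edgeR quasi-likelihood), and this call held in 5 of 12 other fits. It was lost at 0.07 without control replicate 2 (adjusted p = 0.245), at 0.16 without RUNX3 KO replicate 1 (0.0909) and at 0.06 without RUNX3 KO replicate 2 (0.439) in the same edgeR test, with library size alone (0.0814), upper-quartile scaling (0.0860) or no filter (0.147), and with DESeq2 (0.262). After subtraction of the median of its 40 nearest tested genes the CCNG1 value was 0.05.

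PLK2 rose, whereas its relative PLK3 was not called. PLK2 had 972 and 1037 counts in control and 1519 and 1529 in RUNX3 KO libraries, or 82.3 and 87.9 against 129 and 127 CPM. All RUNX3 KO values of PLK2 stood well above the control values. The rise was 1.5-fold, a log2 fold change of 0.59 (standard error 0.0449, adjusted p = 1.04e-20, edgeR quasi-likelihood), which ranged from 0.54 to 0.63 with each library left out in turn. PLK3 had 6.10 and 6.44 CPM in control and 5.85 and 5.91 CPM in RUNX3 KO libraries. The PLK3 log2 fold change of -0.09 had a 95% confidence interval of -0.44 to 0.25 (adjusted p = 0.688, edgeR quasi-likelihood), which leaves room for a moderate change in either direction.

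The antiproliferative genes BTG1 and BTG2, whose products act through the CCR4-NOT deadenylase, were not called. BTG1 had 13.4 and 11.8 CPM in control and 10.1 and 11.6 CPM in RUNX3 KO libraries (log2 fold change -0.22, SE 0.126, adjusted p = 0.152, edgeR quasi-likelihood). The BTG1 value was -0.12 without control replicate 1 or without RUNX3 KO replicate 1 and -0.32 without RUNX3 KO replicate 2. BTG2 ranged from 8.47 to 9.23 CPM over the 4 libraries, which overlapped between groups. The BTG2 log2 fold change of 0.06 had a 95% confidence interval of -0.23 to 0.34. GADD45A, which encodes a stress protein that binds PCNA and CDK1, had 29.6 and 31.9 CPM in control and 32.6 and 34.9 CPM in RUNX3 KO libraries, with a log2 fold change of 0.14 (95% confidence interval -0.02 to 0.29). The GADD45A value was 0.08 without control replicate 1 or without RUNX3 KO replicate 2, and 0.19 without either of the others. SFN, which encodes the epithelial protein 14-3-3 sigma, was too low to be tested, with 9 and 3 counts in control and 8 and 11 in RUNX3 KO libraries.

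**Figure D2:**
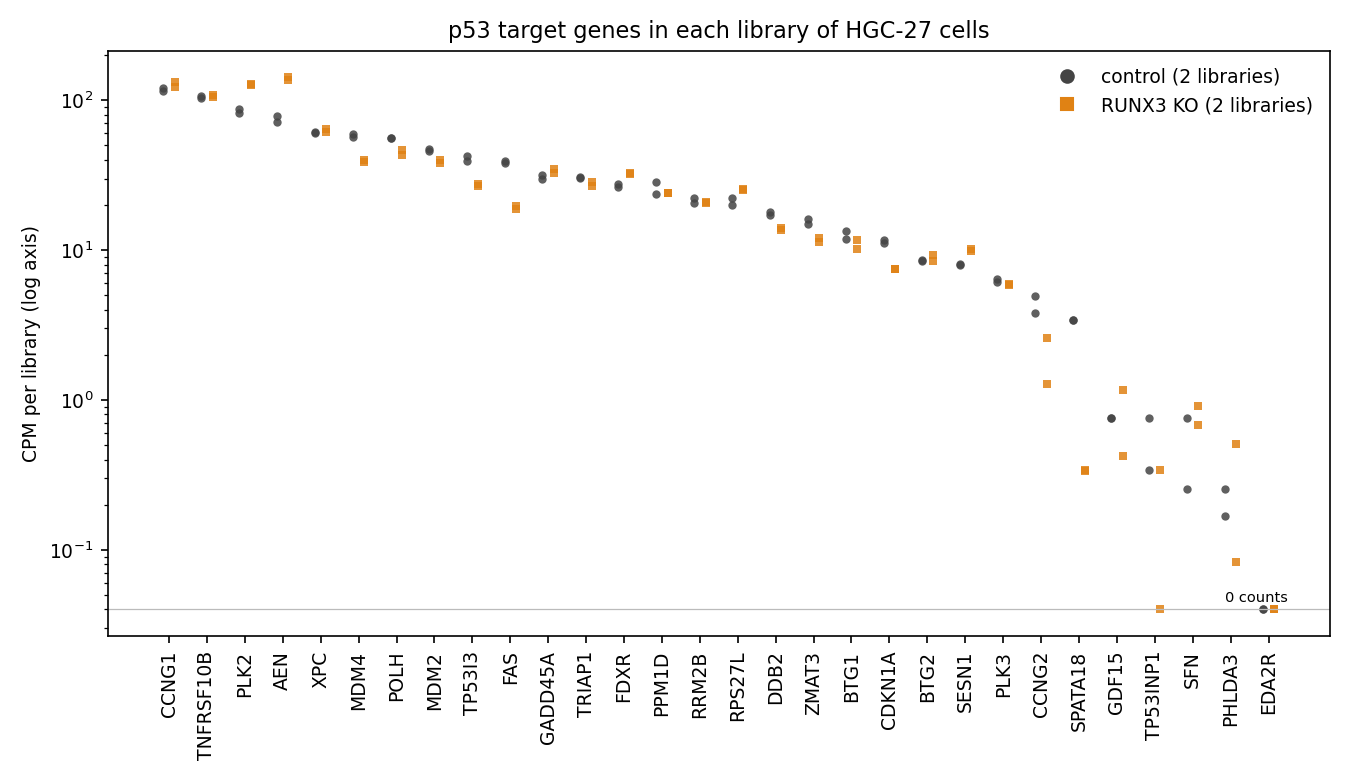
CPM of the 30 p53 target genes in each library, on a log axis, with genes ordered by their mean in control cells; circles are the 2 control libraries, squares the 2 RUNX3 KO libraries, and values of 0 are drawn on the grey line. Replicates lie close together down to a few CPM, the 2 groups lie well apart for SPATA18, FAS and AEN among others, and the 5 genes at the right were too low to be tested.

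Of the 4 genes that feed back on p53, MDM4, MDM2 and ZMAT3 were called lower (background 24.4%) and PPM1D was not called, and the calls of MDM2 and ZMAT3 held in 9 of 12 other fits each. MDM4 encodes the relative of MDM2 that blocks the transactivation domain of p53. It had 59.8 and 56.9 CPM in control and 39.6 and 38.6 CPM in RUNX3 KO libraries, with a log2 fold change of -0.58 (standard error 0.0644, adjusted p = 7.22e-13, edgeR quasi-likelihood). The 40 tested genes nearest to MDM4 had a median of -0.16, and after this was subtracted its value was -0.42. MDM2 moved less, from 47.2 and 45.6 CPM in control to 37.9 and 40.1 CPM in RUNX3 KO libraries, again without overlap. MDM2 was 1.19-fold lower (log2 fold change -0.25, SE 0.0681, adjusted p = 0.00129, edgeR quasi-likelihood). The MDM2 call was lost without RUNX3 KO replicate 1 (adjusted p = 0.0939) or replicate 2 (0.0581) in the edgeR test, and with DESeq2 (0.0756). Exons of MDM2 overlap those of an antisense long non-coding RNA over 785 bases and of a pseudogene on the same strand over 439 bases, which are not in the tables.

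ZMAT3, whose product regulates splicing and the stability of RNAs, had 190 and 177 counts in control and 133 and 146 in RUNX3 KO libraries, which did not overlap. The fall of ZMAT3 was 1.33-fold, a log2 fold change of -0.41 (standard error 0.117, adjusted p = 0.00223, edgeR quasi-likelihood). Its call was lost at -0.35 without RUNX3 KO replicate 1 (adjusted p = 0.0953) and at -0.46 without replicate 2 (0.0669) in the edgeR test, and at -0.41 with DESeq2 (0.104). PPM1D, which encodes the phosphatase WIP1 that switches off the damage response, had 23.6 and 28.3 CPM in control libraries, between which both RUNX3 KO libraries fell. It was not called (log2 fold change -0.10, SE 0.0890, adjusted p = 0.352, edgeR quasi-likelihood).

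Of the DNA repair genes, DDB2 and POLH fell and XPC and RRM2B were not called. DDB2 and XPC encode proteins that recognise damage for nucleotide excision repair, POLH the polymerase eta that copies past ultraviolet lesions, and RRM2B a ribonucleotide reductase subunit that supplies nucleotides for repair. POLH had 665 and 656 counts in control and 546 and 521 in RUNX3 KO libraries, a clear separation of modest size. The POLH log2 fold change was -0.32 (SE 0.0630, adjusted p = 9.76e-06, edgeR quasi-likelihood), and without RUNX3 KO replicate 2 it was -0.27, with an adjusted p of 0.050 that just missed the threshold. An exon of POLH overlaps the antisense gene GTPBP2 by 30 bases, and whether strand was used in counting is not given in the sources used here. DDB2 fell from 18.0 and 17.1 to 14.1 and 13.7 CPM (log2 fold change -0.33, SE 0.108, adjusted p = 0.00715, edgeR quasi-likelihood), a call that held in 8 of 12 other fits. It was lost without control replicate 1 (adjusted p = 0.0616), RUNX3 KO replicate 1 (0.0798) or RUNX3 KO replicate 2 (0.103) in the edgeR test, and with DESeq2 (0.163). XPC ranged from 60.2 to 63.9 CPM and RRM2B from 20.7 to 22.4 CPM over the 4 libraries. Their 95% confidence intervals of the log2 fold change were -0.07 to 0.16 and -0.24 to 0.14.

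Of the death receptors, FAS fell and TNFRSF10B was not called. FAS, the receptor of the FAS ligand, had 451 and 463 counts in control and 221 and 236 in RUNX3 KO libraries, about 2-fold fewer in both. The FAS mean was 38.7 ± 0.730 CPM in control and 19.2 ± 0.641 CPM in RUNX3 KO cells (SD, n = 2 per group). The change was -1.01 on the log2 scale (SE 0.0835, adjusted p = 6.35e-19, edgeR quasi-likelihood), and left-out libraries moved it between -1.05 and -0.98. FAS lies on chromosome 10 from 90750414 to 90775542 (GRCh37, plus strand), where the median of the 40 tested genes around it was 0.02. An antisense long non-coding RNA overlaps its exons over 250 bases. TNFRSF10B, which encodes the TRAIL receptor DR5, had 104 and 107 CPM in control and 108 and 105 CPM in RUNX3 KO libraries. These values interleaved, and the 95% confidence interval of the log2 fold change, -0.08 to 0.10, was narrow. Exons of TNFRSF10B overlap the antisense gene RHOBTB2 by 67 bases. The difference between the changes of both receptors was not tested. EDA2R, the receptor of ectodysplasin A2, had 0 counts in each library, and the exact 95% Poisson interval of its sum in each group reached up to 3.69 counts, counting error alone considered.

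Of the other genes linked to cell death, AEN showed the largest rise of the set. It encodes a nuclease that promotes apoptosis. AEN had 850 and 919 counts in control and 1676 and 1644 in RUNX3 KO libraries, or 72.0 and 77.9 against 142 and 137 CPM, far apart compared with the spread within groups. The change was 0.89 on the log2 scale (SE 0.0457, adjusted p = 1.47e-31, edgeR quasi-likelihood), which is 1.86-fold and under the 2-fold criterion. AEN lies on chromosome 15 from 89164568 to 89175512 (GRCh37, plus strand), and its neighbours were also raised. Of its 40 nearest tested genes 7 were lower, their median was 0.52, and AEN exceeded this by 0.37.

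TP53I3, which encodes a quinone oxidoreductase that generates reactive oxygen species, moved the other way from AEN. It went from 39.5 and 42.5 CPM in control to 26.9 and 27.8 CPM in RUNX3 KO libraries, with a log2 change of -0.58 (SE 0.0764, adjusted p = 2.94e-10, edgeR quasi-likelihood). TRIAP1, a small mitochondrial protein that restrains apoptosis, had 30.5 and 30.2 CPM in control and 26.8 and 28.4 CPM in RUNX3 KO libraries and was not called (log2 fold change -0.14, adjusted p = 0.166, edgeR quasi-likelihood). TP53INP1 and PHLDA3, an inducer of autophagy and cell death and an inhibitor of AKT, could not be tested. TP53INP1 summed to 13 counts in control (exact 95% Poisson interval 6.92 to 22.2) and 4 in RUNX3 KO libraries (1.09 to 10.2). PHLDA3 summed to 5 counts in control (1.62 to 11.7) and 7 in RUNX3 KO libraries (2.81 to 14.4). These intervals cover counting error only, and no test was run on either gene.

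Among the genes of metabolism and mitochondria, SPATA18 fell most of the whole set. It encodes a protein of mitochondrial quality control, also called Mieap. Both control libraries held 40 counts of SPATA18, and both RUNX3 KO libraries held 4. Counts of this gene were thus few but equal within groups, and it passed the filter on low counts through its control libraries alone. The change was -3.30 on the log2 scale (SE 0.390, 95% confidence interval -4.07 to -2.52, adjusted p = 7.42e-12, edgeR quasi-likelihood), or 9.82-fold lower. SPATA18 lies on chromosome 4 from 52917470 to 52963465 (GRCh37, plus strand), and the median of the 40 tested genes around it was 0.05.

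The other tested genes of this group rose slightly. FDXR, the reductase that passes electrons to mitochondrial ferredoxins, had 26.5 and 27.5 CPM in control and 32.3 and 32.7 CPM in RUNX3 KO libraries (log2 fold change 0.27, SE 0.0802, adjusted p = 0.00390, edgeR quasi-likelihood). Without RUNX3 KO replicate 1 or 2 the adjusted p of FDXR in this edgeR test was 0.0715 or 0.0871, and with DESeq2 it was 0.121. RPS27L, a ribosomal protein gene closely related to RPS27, had 20.1 and 22.3 CPM in control and 25.4 and 25.2 CPM in RUNX3 KO libraries, a difference of 0.26 on the log2 scale (SE 0.0907, adjusted p = 0.0140, edgeR quasi-likelihood). This call was lost without control replicate 1 (adjusted p = 0.176), RUNX3 KO replicate 1 (0.155) or RUNX3 KO replicate 2 (0.153) in the edgeR test, with no filter on low counts (0.0563) and with DESeq2 (0.205). Like AEN it lies on chromosome 15, the median of the 40 tested genes around it was also 0.26, and reads could be shared with RPS27. SESN1, a sestrin that restrains mTORC1, had 8.05 and 7.97 CPM in control and 9.91 and 10.1 CPM in RUNX3 KO libraries. The SESN1 log2 fold change was 0.32 (SE 0.142), its adjusted p rounded to 0.050 and passed just under the threshold (edgeR quasi-likelihood), and it kept the call in 1 of 12 other fits. Without any 1 of the 4 libraries its adjusted p in the edgeR test lay between 0.110 and 0.161. GDF15, a secreted stress cytokine that p53 induces, was nearly silent, with 9 and 9 counts in control and 5 and 14 in RUNX3 KO libraries, and was not tested.

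**Figure D3:**
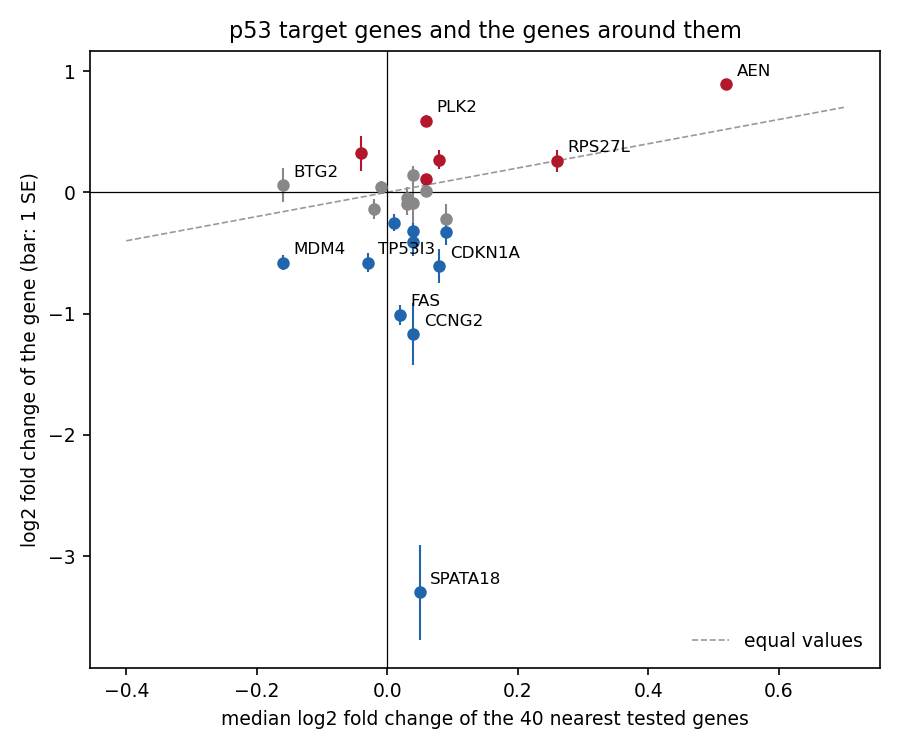
Log2 fold change of each of the 25 tested p53 target genes (vertical axis, bar 1 SE) against the median log2 fold change of its 40 nearest tested genes (horizontal axis), in RUNX3 KO against control cells; colours show the call as above and the dashed line marks equal values. AEN and RPS27L stand at the right, with neighbours at 0.52 and 0.26, while SPATA18, CCNG2, FAS and CDKN1A fell in neighbourhoods between 0.02 and 0.08.

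The neighbourhood median lay beyond 0.1 on either side for 4 of 25 genes, AEN and RPS27L with raised and MDM4 and BTG2 with lowered neighbours. Its part in their changes was not tested. Per length, the levels in control cells ran from CCNG1 at 48.5 CPM per kb over PLK2 at 30.5, TRIAP1 and TNFRSF10B at 26.4 each, TP53I3 at 24.8 and AEN at 24.4, which are close to each other, down to SPATA18 at 0.765 CPM per kb, the lowest of the tested genes. In RUNX3 KO cells AEN stood at 45.4 CPM per kb, next to PLK2 at 45.9. Lengths were those of 1 annotated transcript per gene, and which transcripts these cells use was not determined. Exons of BTG1, PLK3, XPC, PHLDA3 and SESN1 also overlap those of other annotated genes.

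Regulators of the p53 pathway were taken from a list of 29 genes, of which 28 were tested and 14 were called, 6 lower (21.4%, background 24.4%) and 8 higher (28.6%, background 24.5%), with a median log2 fold change of 0.02. These shares were near the background. CDKN2A, whose locus encodes p16 and the MDM2 inhibitor ARF, rose from 63.1 and 65.8 to 128 and 130 CPM (log2 fold change 1.00, SE 0.0474, adjusted p = 7.36e-34, edgeR quasi-likelihood). In its neighbourhood 7 of 40 genes were lower, with a median of 0.72. TP53BP1, a chromatin reader at DNA breaks, rose by 0.41 with a neighbourhood median of 0.26, and the acetyltransferase KAT5 rose by 0.22. The KAT5 call was lost without control replicate 2 (adjusted p = 0.0628), RUNX3 KO replicate 1 (0.0973) or RUNX3 KO replicate 2 (0.116) in the edgeR test, and with DESeq2 (0.0930). CHEK2, a kinase that phosphorylates p53, fell from 34.3 and 35.7 to 20.3 and 21.5 CPM (log2 fold change -0.74, SE 0.0839, adjusted p = 1.24e-12, edgeR quasi-likelihood), and EP300, an acetyltransferase and coactivator of p53, fell from 175 and 179 to 118 and 121 CPM (log2 fold change -0.57, SE 0.0388, adjusted p = 1.65e-23). Both lay among lowered genes, with neighbourhood medians of -0.51, and 39 and 38 of 40 neighbours lower. PPP1R13B, a p53-binding protein, fell by 0.30 on the log2 scale with a neighbourhood median of -0.16, and without RUNX3 KO replicate 1 or 2 its adjusted p in the edgeR test was 0.0530 or 0.0752.

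A list of 55 further p53 target genes was described beside the set. Of these, 45 were tested and 25 (55.6%, background 48.9%) were called, 14 lower (31.1%, background 24.4%) and 11 higher (24.4%, background 24.5%), with a median log2 fold change of -0.07. APOBEC3C, a cytidine deaminase, PERP, a desmosome protein, and SUSD6 (KIAA0247 in the tables) fell most among called genes with a mean of at least 50 counts, by 0.92, 0.69 and 0.59 on the log2 scale. The neighbourhood medians of APOBEC3C and SUSD6 were -0.49 and -0.21, and SUSD6 lost its call without RUNX3 KO replicate 2 (adjusted p = 0.0611, edgeR test). PERP went from 38.2 and 39.9 to 22.5 and 25.7 CPM amid neighbours with a median of 0.01. STEAP3, a metalloreductase, TIGAR (C12orf5 in the tables), a fructose bisphosphatase that restrains glycolysis, and NINJ1, an adhesion protein, rose most under the same limit of 50 counts, by 1.02, 0.76 and 0.55. STEAP3 rose from 19.6 and 18.9 to 36.3 and 41.5 CPM in a neighbourhood with a median of 0.02. The neighbours of NINJ1 had a median of 0.33.

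**Figure D4:**
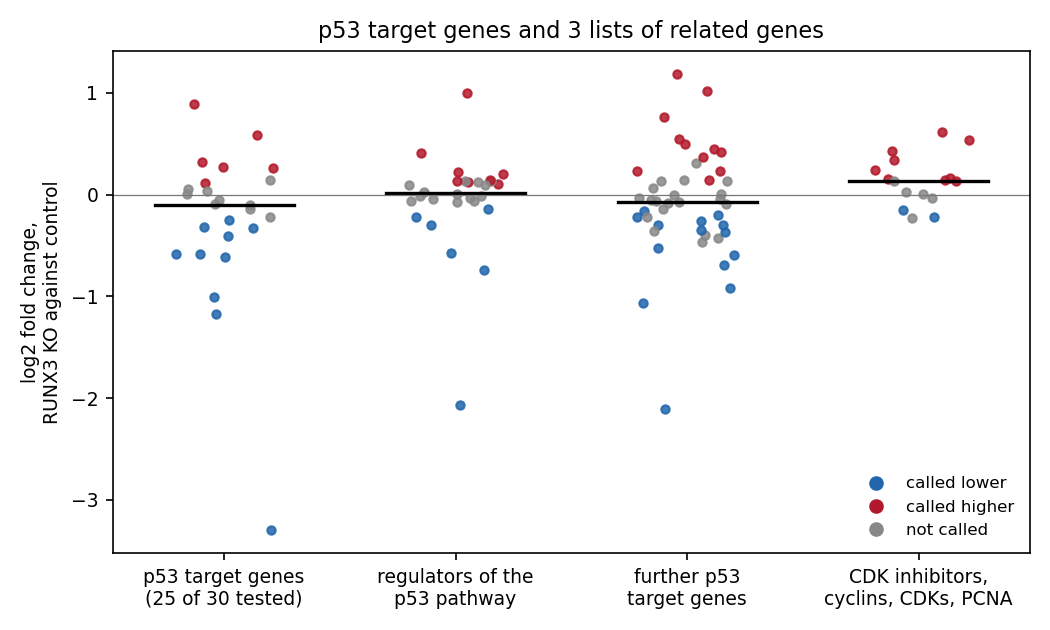
Log2 fold change of each tested gene in RUNX3 KO against control cells, for the p53 target genes and for 3 lists of related genes; each point is 1 gene coloured by its call, points are spread sideways for legibility, and black bars are medians. Medians lie between -0.10 and 0.13, and each list holds genes that fell and genes that rose.

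The last list held other CDK inhibitors and the cyclins, kinases and PCNA that CDKN1A binds. Of 17 genes 16 were tested, 9 were called higher (56.2%, background 24.5%) and 2 lower (12.5%, background 24.4%), and the median log2 fold change was 0.13. These genes had a median of 1231 counts per library against 366 for all tested genes, and 15 of the 16 lay within 1.5-fold. CDKN2B, which encodes p15 beside CDKN2A, rose by 0.62 in the same neighbourhood, and cyclin D3 (CCND3) and cyclin E1 (CCNE1) rose by 0.54 and 0.43. The CDKN2B value was 0.93 without control replicate 1. It lost its call at 0.35 without control replicate 2 (adjusted p = 0.121), at 0.51 without RUNX3 KO replicate 1 (0.257) and at 0.72 without RUNX3 KO replicate 2 (0.150) in the edgeR test, and also with no filter on low counts (0.0787) and with DESeq2 (0.0835). CCND3 went from 40.8 and 42.5 to 64.4 and 56.9 CPM, while its neighbours had a median of -0.02. Without RUNX3 KO replicate 1 or 2 the adjusted p of CCNE1 in the edgeR test was 0.0532 or 0.0517. CDKN2C fell by 0.22 on the log2 scale, a call lost without RUNX3 KO replicate 2 (adjusted p = 0.0595, edgeR test). CDK6 fell by 0.15, a call lost without control replicate 2 (adjusted p = 0.212), RUNX3 KO replicate 1 (0.252) or RUNX3 KO replicate 2 (0.141) in the edgeR test, with no filter on low counts (0.0875) and with DESeq2 (0.232). CDKN1B, which encodes p27, the closest relative of p21 listed and tested here, ranged from 679 to 793 counts over the 4 libraries and was not called (log2 fold change 0.03, adjusted p = 0.743, edgeR quasi-likelihood).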

How the data were processed

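Poly(A) RNA-seq of HGC-27 cells gave 2 control and 2 RUNX3 KO libraries. The authors deposited raw read counts per gene symbol. Per the labels, the submitters' processing notes name HISAT2 2.1.0, HTSeq and hg19, whereas the methods of the study name STAR, featureCounts and GENCODE. The strand setting is not given in the sources used here. The 5 rows of reads without a gene (25.9 to 28.1% of counts) were left out.

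Tests used edgeR 4.0.16 in R 4.3.3 (filterByExpr with a minimum count of 10 and total of 15, TMM, glmQLFTest) and Benjamini-Hochberg adjustment over 12967 genes, and SE was taken as log2 fold change over the root of F. The fit was tested on simulated data. Alternatives used DESeq2 1.42.0, limma 3.58.1, other scalings and filters, a replicate block, left-out libraries and the 20 nearest tested genes on each side. Positions and transcripts came from GENCODE lifted to GRCh37, which matched 93.4% of tested genes. Genes and lists were chosen with earlier results of these data known. All 30 target genes are named, and from each other list the 3 largest falls and rises among called genes whose groups did not overlap and whose mean count was 50 or more. CDKN1B was added to these with its values known, and 1 listed gene is not reported here. An exact permutation test of 2 against 2 libraries cannot go below p = 0.333.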

Additional observations from a re-analysis of the deposited data

How the results depend on the processing

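Of the 25 tested p53 target genes, 12 kept their direction and side of the threshold in each of 12 other fits that could test them. The genes called lower numbered 10, and 7 with DESeq2, 3 at a fold change of 2, and 6 to 10 with each library left out; the genes called higher numbered 6, and 2 with DESeq2, 3 without a filter on low counts, 0 at a fold change of 2, and 2 to 4 with each library left out. Over all genes, 3158 were lower and 3183 higher, and 1863 and 1829 with DESeq2, 520 and 274 at a fold change of 2, and 1378 to 2806 and 1285 to 2745 with each library left out. For the regulators of the p53 pathway the 6 lower and 8 higher genes became 3 and 4 with DESeq2, and 2 to 7 in both directions with each library left out. The 14 lower and 11 higher further target genes became 8 and 6 with DESeq2, and 7 to 13 and 5 to 10 with each library left out. The 2 lower genes among CDK inhibitors and partners became 1 with DESeq2 and without a filter and 0 to 2 with each library left out, and the 9 higher ones 4 to 9. With a library left out, the lone library is assumed to vary like the other group, and fewer samples enter. Among the target genes, directions turned for 4 uncalled genes near 0 and for RPS27L. With each library left out, BTG2 ranged from -0.01 to 0.12, PPM1D from -0.23 to 0.03 and RRM2B from -0.11 to 0.01. The others were TNFRSF10B (-0.01 with library size alone, with upper-quartile scaling, and without control replicate 1 or RUNX3 KO replicate 1), and, after subtraction of the neighbourhood median, TNFRSF10B (-0.05) and RPS27L (-0.00). The causes were not tested.

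The replicate number did not pair the libraries, since deviations of same-numbered libraries had a correlation of -0.021 over 9806 genes. With the replicate block, 10 target genes were lower and 5 higher, and over all genes 3143 were lower and 3143 higher. SPATA18 has no value under a minimum of 10 counts in every library. Replicates of a group differed by slightly more than counting noise (chi-square of 1.22 and 1.18 per degree of freedom).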
